A study of Mus musculus with 9 samples.

Results

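Coding exon sites away from promoters are regions centred on protein-coding sequence, more than 1 kb from any annotated transcript start. In each, CUT and RUN against tagged MyoD1 gave peaks in 2 or more libraries. Overlapping peaks of the 6 lists were joined into regions, of which the 18773 called in 2 or more libraries were kept. A region was a member when its centre lay on a coding exon (CDS, the translated part of an exon) of the basic GENCODE M21 set on mouse build mm10 and more than 1 kb from every transcript start. There were 560 members in 522 genes, or 2.98% of the regions. A further 11 regions passed the same rule and were left out, 10 of them in Cdh23, 1 in Myod1 and 0 in Myog.

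The cells were C2C12, an immortal mouse myoblast line. Every library used here came from 1 clonal line in which endogenous MyoD1 carried a 3xFlag-Halo tag and a 3xFlag-Halo-MyoD1 transgene stood under the dox-inducible TRE3GS promoter. A switch to low-serum medium started differentiation in all these cultures, without doxycycline (no dox, 3 biological replicates) or with it for 6 h (+dox, 3 biological replicates). By the study's imaging, not every nucleus held detectable tagged protein, so a library can mix expressing and other cells. The 3 wild-type libraries were not analysed here, so no level measured in untagged cells stands beside these values.

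MyoD1 is a basic helix-loop-helix transcription factor that pairs with E proteins and sets skeletal muscle identity. The pair reads the E-box CANNTG, with a preference for CAGCTG, and is best known from promoters and distal enhancers of muscle genes. Coding exons can hold the same letters because CAG and CTG are common codons, for glutamine and leucine. A sequence there serves both the reading frame and any factor that binds it.

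CUT and RUN with anti-Flag M2 frees DNA around the tagged protein for sequencing. The lists held from 9389 to 53661 peaks, and steps in their signal correspond to a depth of 2868000 to 8030000 alignments a library. Whether an alignment here is a read or a fragment is not given in the sources used here. Both libraries numbered 3 stood apart, with lowest total signals of 354 (no dox 3) and 336 (+dox 3) where the other 4 had 837 to 904. The +dox 3 list was the longest and came from the deepest library. Results are therefore also given for the libraries numbered 1 and 2 and for those numbered 3. A height percentile is the rank of a peak's maximum signal (CPM, coverage scaled to the library's depth) within its own list, so it compares sites within a library and carries no absolute amount of bound protein. A region without a peak in a list has no value there, which is not a signal of 0.

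The sequences below show CAGCTG lying on coding bases near the maximum of 8 members. They are among those with such a copy within 100 bp of the maximum among the 10 highest members called in all 6 libraries (the first 2) and the 10 highest called in every +dox library and none without dox (the other 6). Each is 60 bases of mm10 read 5′ to 3′ on the gene's own strand, and the capitals mark the 1 copy of CAGCTG on which the window is centred. Other E-boxes in a window, such as a second CAGCTG in Thap8, stay in lower case. The Afmid exon lies in the member listed under Gm20708, a gene annotated over the same place.
Trim11 (chr11:58982131-58982190, plus strand, 15 bp from the maximum): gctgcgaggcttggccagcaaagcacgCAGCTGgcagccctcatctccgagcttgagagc
Afmid (chr11:117832350-117832409, plus strand, 46 bp from the maximum): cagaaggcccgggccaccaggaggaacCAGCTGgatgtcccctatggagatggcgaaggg
Pcdh15 (chr10:74626734-74626793, plus strand, 62 bp from the maximum): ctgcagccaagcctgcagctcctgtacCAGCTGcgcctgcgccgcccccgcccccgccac
Trak2 (chr1:58909973-58910032, minus strand, 2 bp from the maximum): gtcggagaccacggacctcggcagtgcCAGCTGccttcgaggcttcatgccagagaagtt
Myh13 (chr11:67358371-67358430, plus strand, 75 bp from the maximum): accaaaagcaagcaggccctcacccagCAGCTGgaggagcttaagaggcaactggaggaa
Mroh6 (chr15:75884329-75884388, minus strand, 17 bp from the maximum): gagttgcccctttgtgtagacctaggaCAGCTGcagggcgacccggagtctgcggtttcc
Thap8 (chr7:30289791-30289850, plus strand, 20 bp from the maximum): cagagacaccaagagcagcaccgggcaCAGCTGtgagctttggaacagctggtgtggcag
Cdcp2 (chr4:107106915-107106974, plus strand, 19 bp from the maximum): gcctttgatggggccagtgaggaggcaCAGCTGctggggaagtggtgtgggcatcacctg

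In 5 of these, Trim11, Afmid, Myh13, Mroh6 and Cdcp2, the E-box was read as a CAG and a CTG codon, so it encodes glutamine and leucine. In Pcdh15 and Thap8 the frame put GCT (alanine) in the middle of the E-box, and in Trak2 AGC (serine). All 60 bases shown were coding in 7 of the 8, and 41 of 60 in Mroh6. The maximum of the Mroh6 member lay in an intron, and the maxima of the other 7 lay on coding bases.

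Members were called in every library. A peak lay in 189, 321 and 217 members without dox and in 224, 277 and 487 with dox. The +dox 3 library alone exceeded the no dox range, and the groups overlapped. The means were 242 ± 69.5 (SD, n = 3) and 329 ± 139 (SD, n = 3), a difference of 87.0 members that did not pass the test (exact two-sided permutation test over 20 assignments, p = 0.5, adjusted p = 0.6 over 6 tests, the smallest possible p being 0.1). Within the libraries numbered 1 and 2 the difference was -4.5, between those numbered 3 it was 270.0, and shortening all lists to the same length left 1.33. Without +dox 3 it was 16.5. As a share of all peaks of the list, member peaks made up 2.13%, 2.45% and 1.67% without dox and 1.88%, 2.22% and 0.973% with dox. The longest list thus held the most members and the smallest share of them. The difference between the means of 2.08% ± 0.392 and 1.69% ± 0.644 (SD, n = 3 each) did not pass the test (exact permutation test, p = 0.5, adjusted p = 0.6). Paired by number, the share was lower with dox in 3 of 3 pairs (exact sign-flip test, p = 0.25, the smallest that 3 pairs allow).

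**Figure D1:**
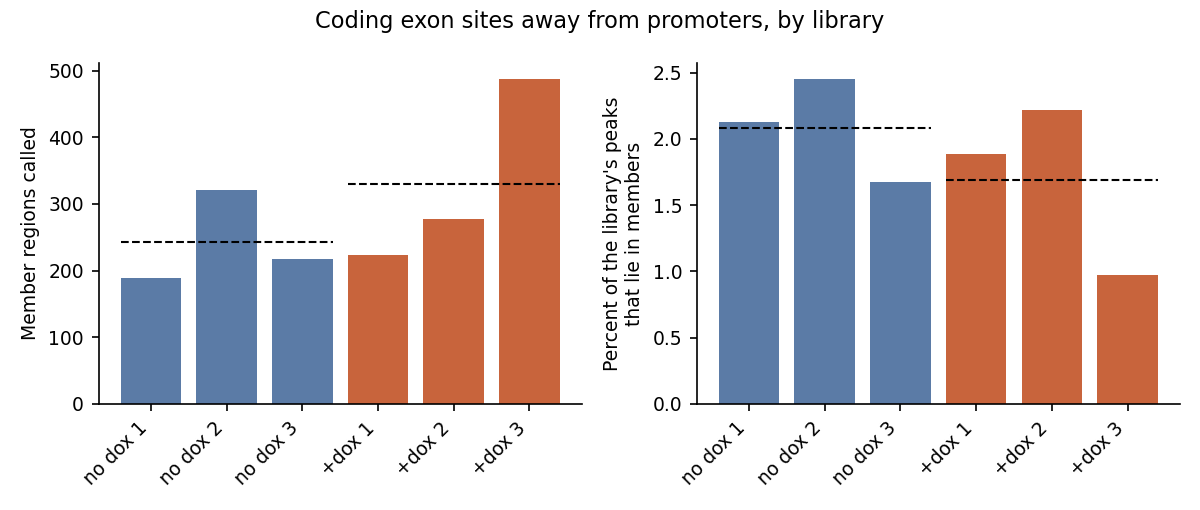
Member regions with a peak in each library (left) and the percent of the library's peaks that lie in members (right), 3 no dox libraries in blue and 3 +dox in orange, with dashed lines at the group means. The bar of +dox 3 is the tallest on the left at 487 members and the lowest on the right at 0.973%.

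Most members were called in few libraries. Of 560 members, 295 (52.7%) were called in 2 libraries, 105 in 3, 55 in 4, 40 in 5 and 65 (11.6%) in all 6. Over all regions 25.8% were called in all 6, and among intron sites, the regions centred in introns more than 1 kb from every start, 22.6%. Members had a median width of 1275 bp (range 450 to 6850), against 1350 bp for intron sites. Their median distance to the nearest start was 5964 bp, with 89 members between 1 and 2 kb and 175 beyond 10 kb. The farthest was in Pcdh15, 194071 bp from any start. At the edge of the rule, the 15 members 1000 to 1100 bp from a start had a median height percentile of 29.2, and the 9 coding exon regions 900 to 1000 bp from one had 21.2.

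By the median over all their peaks, members were the lowest class of site in every library. Their median height percentile was 29.3, 29.1 and 38.6 in the no dox lists and 29.7, 25.7 and 54.0 in the +dox lists. Intron sites stood at 57.7, 56.2 and 61.2 without dox and at 49.3, 54.4 and 83.1 with dox. In each library the member median lay below that of intron, intergenic, promoter and other exon regions, by 19.6 to 29.2 points for introns. The mean difference from introns was -25.9 points, with members lower in 6 of 6 libraries (exact sign-flip test, two-sided, over 64 patterns, p = 0.031, the smallest possible, adjusted p = 0.0938 over 6 tests). It was -25.9 within the libraries numbered 1 and 2 and -25.9 within those numbered 3. The 6 libraries share the regions and came from 1 clonal line, so they are not independent repeats of this contrast. The adjusted p could not reach the 0.05 level whatever the data, given the smallest p values that the 6 tests allow. With every list shortened to the length of the shortest, the difference was -9.63 points and held in 5 of 6 libraries (exact p = 0.0625). The order of the classes differed by number of calls. Averaged over the libraries that called a region, the median percentile of members called in 2 libraries was 22.9, against 46.3 for introns. Among regions called in all 6 it was 81.2 for members, the highest class. Intron and intergenic regions stood at 78.8 there, other exon regions at 76.1 and promoters at 73.4.

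**Figure D2:**
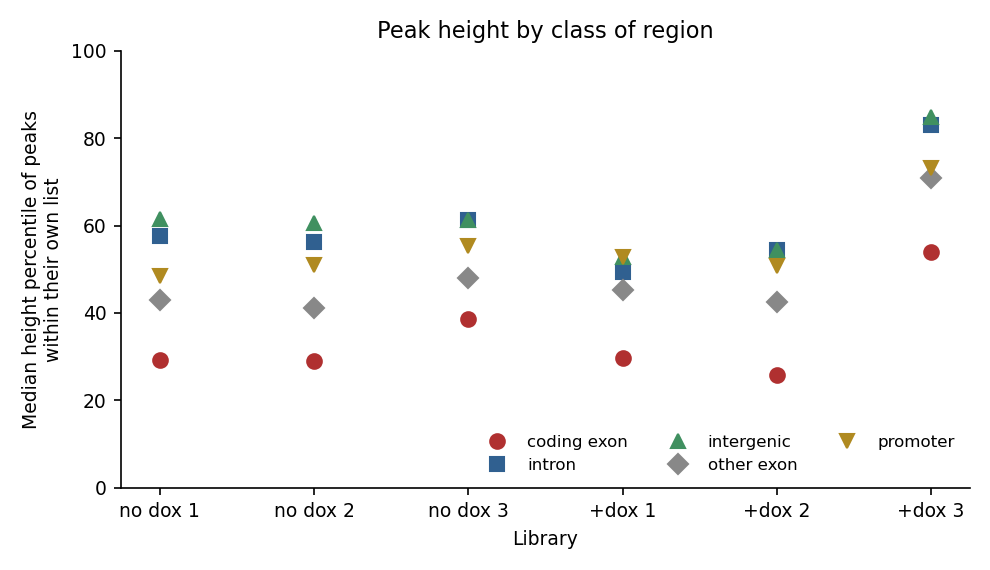
Median height percentile (rank of maximum signal within the list, in percent) of the peaks in each class of region, 1 point per library and class. The coding exon points lie lowest in all 6 libraries, from 25.7 to 54.0.

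The groups overlapped in member height. The group means of the median percentile were 32.3 ± 5.41 without dox and 36.5 ± 15.3 with dox (SD, n = 3 each), a difference of 4.15 points (exact permutation test, p = 0.8, adjusted p = 0.8). It was -1.47 within the libraries numbered 1 and 2 and 15.4 between those numbered 3. The gap to intron sites averaged -26.0 points without dox and -25.8 with dox, and the difference between these gaps was 0.212 points (exact permutation test, p = 1.0). Tall members existed all the same. Between 17 and 66 member peaks per library reached the top 10% of their list, 6.47% to 12.6% of member peaks, where 10.45% to 33.6% of intron peaks did.

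A centre on a coding exon did not always mean a maximum on one. The maximum of the highest-ranked peak lay on coding bases in 370 of 560 members (66.1%, 95% Wilson interval 62.0 to 69.9, counting error only). In 162 members it lay in an intron, in 20 on a non-coding part of an exon, in 7 on non-coding bases within 1 kb of a start, and in 1 outside genes. The median member was 46.1% coding by length, 91 members were over 90% coding, and 94 were under 20%. By library, 66.0%, 67.9% and 50% of member maxima lay on coding exons without dox and 67.4%, 69.0% and 60.7% with dox. The coding share of the bases in the same peaks was 57.7%, 55.4% and 39.3%, then 59.2%, 56.8% and 44.5%. Maxima exceeded bases by 11.4 points on average, in 6 of 6 libraries (exact sign-flip test, p = 0.031, adjusted p = 0.0938). The rule itself places region centres on exons, so peak midpoints were set beside the maxima in an alternative added after the data were seen. Midpoints lay on coding exons in 53.6% to 73.8% of member peaks. Maxima differed from them by -1.88 points on average, lower in 3 of 6 libraries (exact sign-flip test, p = 0.688). By library the differences were 1.0, 0.294 and -3.57 points without dox and -0.424, 4.42 and -13.0 with dox. The largest was thus in +dox 3.

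Members whose maximum was off the exon stood higher. By library, peaks with the maximum on a coding exon had median percentiles of 21.4, 29.1 and 38.6 without dox and 23.0, 19.0 and 44.8 with dox. Those with the maximum elsewhere had 48.1, 37.5 and 38.6 without dox and 49.3, 46.9 and 60.2 with dox. The second set was higher in 5 libraries and equal in no dox 3. Among members called in all 6 libraries, 29 of 65 (44.6%) had the maximum on a coding exon, against 203 of 295 (68.8%) of those called in 2.

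The exons concerned were long. The coding length of the exon at the centre had a median of 450 bp (449.5), from 8 bp in Pcdh15 to 10374 bp in Eppk1, against 125 bp for the 182676 coding exons more than 1 kb from every start. Exons over 1 kb held 155 members (27.7%), while they made up 1.485% of those exons and 16.3% of their coding bases. Of the members, 45 lay on a first coding exon, 320 on an internal one, 145 (25.9%) on the last and 50 (8.93%) on the only one. Last and only exons were 12.05% and 0.664% of all coding exons away from starts. These shares and the median of 125 bp count each exon once, while a region centre falls more readily on a longer exon. The part of exon length in these contrasts was not tested. The sequence around the maximum was GC-rich, with a median of 60.5% GC over 200 bp against 55.0% at intron sites, 65.0% at promoters and 49.5% around the centre of all coding exons away from starts.

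CAGCTG was searched on both strands, first in whole peaks. Both strands are read by the same letters, since CAGCTG is its own reverse complement. With each peak extended by 100 bp on both sides, 80.5%, 78.2% and 81.7% of member peaks held it without dox and 76.3%, 80.3% and 78.5% with dox. Intron peaks held it in 82.2%, 80.9% and 83.0% without dox and 77.3%, 78.2% and 80.7% with dox. The mean difference of -1.11 points, lower in 5 of 6 libraries, did not pass the test (exact sign-flip test, p = 0.156, adjusted p = 0.3125) and was 2.90 with lists of equal length and 0.14 at more than 2 kb from starts. It was -0.802 in the libraries numbered 1 and 2 and -1.73 in those numbered 3. Within 100 bp of the maximum the members held less of it, by 5.59 points on average and in 6 of 6 libraries (exact p = 0.031, adjusted p = 0.0625). Counted once per region, 220 of 560 members (39.3%, 95% Wilson interval 35.3 to 43.4) had it in that window of 200 bp, against 47.8% of intron sites, 24.2% of promoter regions and 37.3% of all regions. The window of the same length around the centre of all coding exons away from starts held it in 15.1%.

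The E-box gathered at the maximum, less steeply than at intron sites. Of the members, 25.5% had a copy within 50 bp of the maximum, 20.0% at 50 to 100 bp, 13.6% at 100 to 150 bp and 7.86% at 450 to 500 bp. For intron sites the same shares were 32.3%, 22.8%, 15.7% and 6.24%. The median distance from the maximum to the nearest copy in the region, extended by 100 bp, was 109 bp, and 324 members (57.9%) held 2 or more. A region on Myh9, the heavy chain of non-muscle myosin IIA, held the most with 18.

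**Figure D3:**
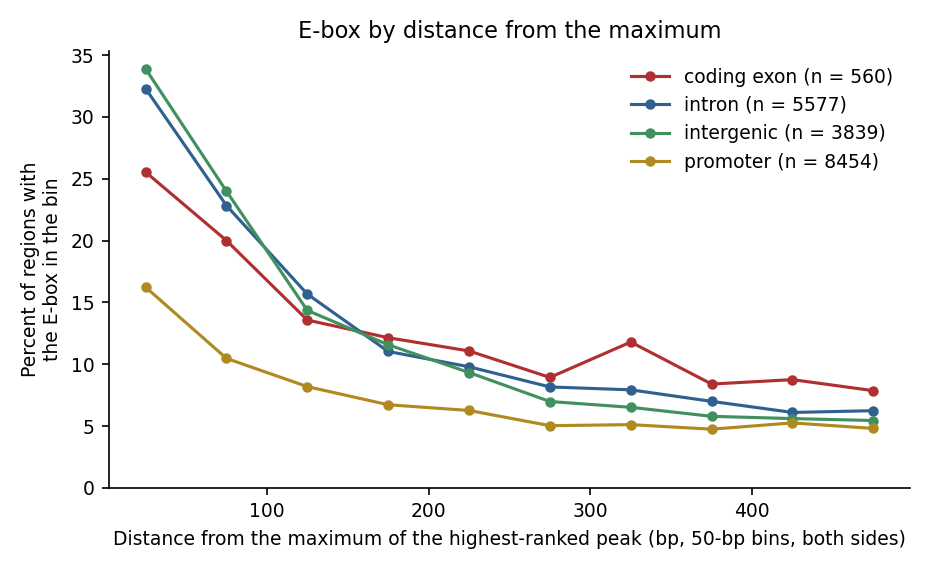
Percent of regions with at least 1 CAGCTG in each 50-bp bin of distance from the maximum of the highest-ranked peak, both sides together, for 4 classes of region. The coding exon line starts at 25.5%, between intron sites at 32.3% and promoter regions at 16.2%, and ends at 7.86%.

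E-box content followed the number of libraries that called a member. CAGCTG lay within 100 bp of the maximum in 92 of 295 members called in 2 libraries (31.2%), in 36.2% of those called in 3, 47.3% in 4, 47.5% in 5 and in 45 of 65 called in all 6 (69.2%, 95% Wilson interval 57.2 to 79.1). GC content stayed between 60.0% and 61.5% across these sets. Intron sites went from 38.4% to 62.7% over the same steps and promoter regions from 18.02% to 35.5%. Members were below introns among sites called in 2 libraries and above them among sites called in 6. The same held for other exon regions, which reached 69.1% (38 of 55) among sites called in 6. This crossing was therefore not particular to members. These shares are descriptions over regions that share libraries.

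**Figure D4:**
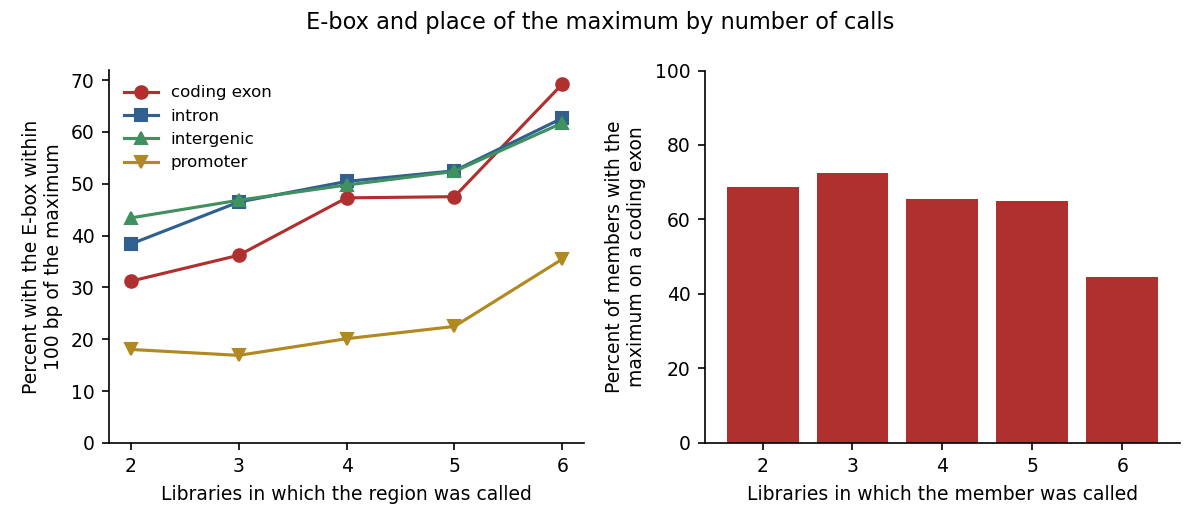
Left, percent of regions with CAGCTG within 100 bp of the maximum against the number of libraries that called them, for 4 classes. Right, percent of members whose maximum lay on a coding exon; the E-box share of members climbs from 31.2% to 69.2% while the share of maxima on exons goes from 68.8% to 44.6%.

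The codon frame of the E-box was close to that of all coding copies. In the 200 bp around member maxima there were 299 copies of CAGCTG, 199 of them within 1 coding exon. Of those, 116 (58.3%, 95% Wilson interval 51.4 to 64.9) were read as CAG and CTG, 53 (26.6%) had GCT as the middle codon and 30 (15.1%) had AGC. Over 28753 coding copies away from starts, counted in 1 transcript per gene, the shares were 53.7%, 30.8% and 15.5%. Each genome-wide share lay within the interval of the members, so a preference for a frame was not detectable with 199 copies.

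TGANTCA, searched on both strands, the site of AP-1 factors such as Jun and Fos, was scarcer in members than at intron sites. It occurred within 100 bp of the maximum in 43 of 560 (7.68%, 95% Wilson interval 5.75 to 10.2), against 21.4% of intron sites, 22.1% of intergenic regions, 4.96% of promoter regions, 13.7% of all regions and 4.69% of windows on all coding exons away from starts. Per library it was in 7.35% to 11.6% of member peaks and in 17.2% to 22.0% of intron peaks, so the ranges did not overlap. By number of calls, 5.76% of members called in 2 libraries held it and 16.9% (11 of 65) of those called in all 6. For intron sites these shares were 19.05% and 24.7%. Of all regions called in all 6 libraries, 14.3% held it, so members were not below that background there.

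Of the 10 highest members among the 65 called in all 6 libraries, 7 had CAGCTG within 100 bp of the maximum. The maximum was on coding bases in 3 of them. The highest was on the first coding exon of Rusc1 (chr3:89089101-89093900), an adaptor protein gene. Its maximum signal was 228, 223 and 35.1 CPM without dox and 630, 376 and 147 CPM with dox. Its lowest +dox value was below 2 of its no dox values, although its signal was higher with dox in every pair of the same number. Its log2 difference, +dox minus no dox, was 1.43, against a median of 0.91 over all 4838 regions called in all 6 libraries. The maximum of Rusc1 was 881 bp from a start, inside promoter distance. Adcy7, an adenylyl cyclase that makes cyclic AMP (chr8:88313001-88318600), had 51.9, 77.7 and 57.9 CPM without dox and 101, 102 and 55.3 CPM with dox, with the maximum in an intron.

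Trim11, a ubiquitin ligase, had its maximum on coding exon 3 of 7, 15 bp from the E-box shown above (chr11:58981301-58982850). The signal was 63.99, 53.3 and 18.9 CPM without dox and 172, 120 and 51.3 CPM with dox, at percentiles from 96.8 to 99.5. The member at Gm20708 and Afmid, an enzyme of tryptophan breakdown (chr11:117831751-117833150), had 29.8, 47.0 and 20.1 CPM without dox and 46.0, 58.4 and 47.6 CPM with dox. Bcat2, the mitochondrial enzyme that starts branched-chain amino acid breakdown, had its maximum on a last exon with 36 coding bases and values of 39.6, 42.4 and 12.9 CPM without dox and 79.5, 86.2 and 31.1 CPM with dox. In Trim11 and Bcat2 the libraries numbered 3 were the lowest of their group, and in all 3 members the groups overlapped. Paired by number, each of the 3 members had the higher signal with dox in every pair. The log2 differences, +dox minus no dox, were 1.35 in Trim11, 0.73 at Gm20708 and 1.10 in Bcat2. Over all 4838 regions called in all 6 libraries the median was 0.91. With each library centred on its median over those regions, the 3 differences were 0.42, -0.20 and 0.175.

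The other 5 were in Thap3, Nudt14, Tbc1d16, B430305J03Rik and Grk6. Thap3 encodes a zinc-finger protein, Nudt14 a Nudix hydrolase, Tbc1d16 a regulator of Rab GTPases and Grk6 a kinase of G protein-coupled receptors. Their mean percentiles ran from 94.5 in Grk6 to 96.8 in Thap3, and none had its maximum on a coding exon: 4 lay in introns and that of B430305J03Rik on a non-coding part of an exon.

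The dox comparison asks which sites are occupied at raised MyoD1 levels. Of 560 members, 15 (2.68%) were called in every +dox library and none without dox, where 3.38% of all regions were. Only 1 (0.179%) showed the opposite pattern, against 0.0266% of all regions, which is 5 regions. By the looser count of 2 or more +dox and at most 1 no dox library, 178 members (31.8%) were called against 28.4% of all regions. In the other direction it was 56 members (10%) against 5.11%. The +dox pattern was thus near its background among members. Of the 178, 72 (40.4%) had CAGCTG within 100 bp of the maximum, against 31.4% of all regions of that pattern. Of the 56, 12 (21.4%) had it, against 35.3%. Of the 15, 11 had it, against 30.6% of the 634 regions of that pattern, and 0 had TGANTCA, against 8.99%.

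The 9 highest of these 15 were in Slc24a4, Pcdh15, Trak2, Myh13, Mcf2l, Mroh6, Map3k6, Thap8 and Cdcp2. Slc24a4, a potassium-dependent sodium and calcium exchanger, had 10.5, 8.34 and 3.74 CPM in the 3 +dox libraries. Pcdh15, a protocadherin of hair cell tip links, had 13.25, 6.67 and 2.99 CPM. Its region (chr10:74626251-74627050) is centred on an exon with 8 coding bases, and the E-box shown lies on a coding exon of another transcript. Trak2, an adaptor that ties mitochondria to motor proteins, had 5.58, 8.34 and 12.7 CPM, with the E-box 2 bp from the maximum. It was the only one of these 9 whose CPM was highest in +dox 3.

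Myh13, a myosin heavy chain of extraocular muscle, had 6.62, 8.90 and 4.48 CPM with dox, with its centre on coding exon 26 of 39 and its E-box on exon 27. Its maximum lay on coding bases with CAGCTG 75 bp away. Percentiles were higher in +dox 3 than in the other +dox lists for each of the 9, and the +dox 3 list was the longest. The single member with the opposite pattern was in Hdac5, a class IIa histone deacetylase (chr11:102195651-102196950). It stood at percentiles of 2.28, 19.7 and 4.47 without dox, near the bottom of each list.

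**Figure D5:**
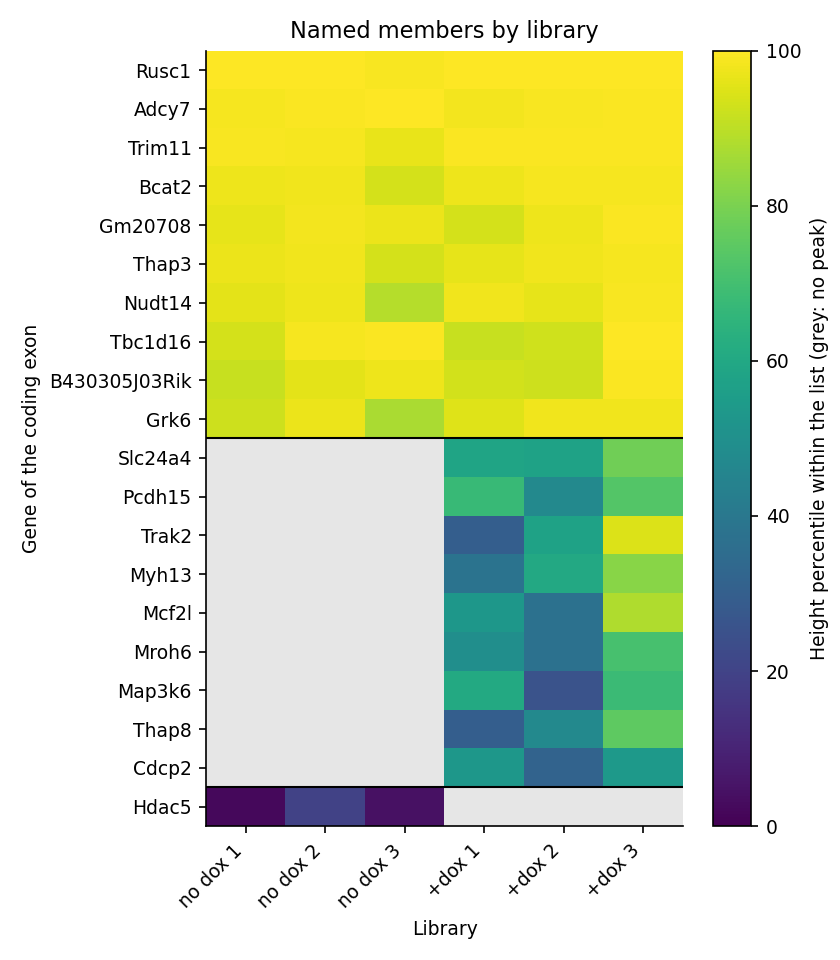
Height percentile within the list (colour) of 20 members by library, with grey where no peak was called. From top to bottom, the 10 highest members called in all 6 libraries lie at 87.1 or above in each one, the 9 highest called in +dox only reach from 25.7 to 94.7, and Hdac5, called in no dox only, reaches 19.7.

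Signal could be compared between groups for the 65 members called in all 6 libraries. Their median log2 difference in maximum signal, +dox minus no dox, was 0.94, and 63 of 65 were above 0. The median over all 4838 regions called in all 6 libraries was 0.91, close to that of the members. All 3 +dox percentiles lay above all 3 no dox percentiles in 18 of 65 members (27.7%) against 23.7% of all regions, and below in 0 against 0.0413%. Without a replicate block, 0 members and 0 of 4838 regions passed an adjusted p of 0.05 in limma in either direction, or 0.0% (24 members and 1173 regions had an unadjusted p under 0.05). Libraries of the same number deviated together, and with the replicate number as a block 37 of 65 members (56.9%) rose, against 53.5% of all regions, and 0 fell, against 0.062%. Without +dox 3 and with no block, 27 of the 53 members then tested rose (50.9%), against 40.1% of all regions, and 0 fell, against 0.103%. With each library centred on its median over these regions, 0 members passed with or without the block, and 35 of 65 were above 0.

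The members with the largest differences were in Tesk1, Gas2l1, Trim14, Dnase2a and Tmem102. Tesk1, a kinase that acts on cofilin, had 25.6, 23.5 and 4.29 CPM without dox and 99.7, 59.5 and 23.4 CPM with dox. Its log2 difference was 1.92 ± 0.69 (SE), with adjusted p = 0.203 in limma without the block and 1.4e-04 with it. With libraries centred on their medians the log2 difference was 0.99, with adjusted p = 0.363 in limma with the block and 0.983 without it. The groups overlapped, since the +dox 3 value lay below both no dox 1 and no dox 2. Gas2l1, which links actin and microtubules, had 7.21, 3.16 and 2.57 CPM and then 24.4, 15.6 and 6.23 CPM, with a log2 difference of 1.78 ± 0.61 (SE). Trim14 and Dnase2a, a lysosomal nuclease, differed by 1.76 and 1.74 on the log2 scale, and Tmem102 by 1.67. Only Sohlh2 (-0.07) and Gm27021 (-0.21) were below 0. Sohlh2, a helix-loop-helix factor of germ cells, had 5.82, 11.3 and 6.00 CPM without dox and 3.49, 6.67 and 14.7 CPM with dox, so the groups overlapped.

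Several genes held more than 1 member. Of 522 genes, 491 had 1 member, 26 had 2, 3 had 3 and 2 had 4. Plec, which encodes the cytoskeletal linker plectin, had 4 on chr15. Its member over coding exon 17 of 33 (chr15:76186001-76191100) was called in all 6 libraries at 12.1, 20.3 and 7.71 CPM without dox and 40.4, 31.1 and 22.2 CPM with dox. The other 3 lay on its last 2 coding exons of 3381 and 6213 bp and were called in 2, 3 and 4 libraries at mean percentiles of 28.0, 23.6 and 23.9. Mast1, a microtubule-associated kinase, had 4, called in 2 to 5 libraries at mean percentiles of 21.4 to 41.5. Sptbn4, a spectrin of axon initial segments, had 3, and 1 of them (chr7:27371651-27372350) was called in the +dox libraries alone, in all 3, with an E-box 8 bp from its maximum. Bsn, a presynaptic scaffold, had 3, of which 1 was called in all 6 libraries at a mean percentile of 81.8. Kmt2d, a histone H3 methyltransferase of enhancers, had 3, each called in 2 libraries. Members of 1 gene share its sequence context and are not independent.

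Genes with a member had long coding sequences, with a median of 2046 bp against 1326 bp over the 18941 genes that have a coding exon more than 1 kb from every start. Of those genes 2.76% had a member. In a list of plakins, spectrins and other large linker proteins it was 6 of 26 genes (23.1%), with 11 members, and the median coding length of that list was 7744 bp (7744.5). Among chromatin regulators it was 5 of 32 (15.6%), among them Ep300, Hdac5, Kmt2d and Setd1a, with a list median of 6513 bp. The part of coding length in these counts was not tested.

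Sarcomere and muscle cytoskeleton genes had a member in 5 of 50 (10%), among them Actn3, Obsl1, Speg and Synpo2l. Of all genes with a coding exon away from starts, 2.76% had one. The median coding length of this list was 2746.5 bp, against 1326 bp over those genes, and the part of length was not tested. Of the 5 members, 0 were called in all 6 libraries, where 11.6% of all members and 25.8% of all regions were. In 2, that of Synpo2l among them, peaks were in the 3 +dox libraries and none in no dox, a pattern of 2.68% of members and 3.38% of regions. With 5 members these counts are a description only. Actn3, the alpha-actinin of fast muscle fibres, was called in +dox 2 and +dox 3 at 6.67 and 2.49 CPM, and Obsl1 in +dox 1 and +dox 3 at 4.88 and 1.25 CPM. Speg, a kinase of the triad and sarcomere, was called in no dox 1, no dox 3 and +dox 1 at 2.33, 2.57 and 3.49 CPM. The members of this list had a median mean percentile of 27.4, against 30.8 for all members.

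Cadherins, integrins and other adhesion molecules had a member in 5 of 100 genes (5.0%), with 6 members. The median coding length of this list was 2797.5 bp, and its part in the count was not tested. Itga2b, an integrin chain of platelets, had 2 of them, on exons 4 and 29 of 30. The first was at percentiles of 53.3 and 51.0 in no dox 1 and 2 and at 91.2, 84.7 and 92.3 with dox. The second was called in all 6, at 57.7, 64.3 and 47.9 without dox and 85.9, 74.1 and 90.1 with dox, with no overlap between the groups. Among regions called in all 6 libraries, 27.7% of members and 23.7% of all regions were separated in this way. In limma its signal had an adjusted p of 0.203 without the block and 0.0011 with it. On median-centred libraries the adjusted p in limma with the block was 0.460. Itgb6 was called in no dox 2 and +dox 3 at percentiles of 44.9 and 86.3. The adhesion members had a median mean percentile of 64.02, the highest of the 9 lists. With 6 members, 2 of them in Itga2b, this is a description only. Each mean covers only the libraries that called the region, which for Pcdh15 were the +dox libraries alone.

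Extracellular matrix genes had a member in 8 of 146 (5.48%), the highest in Adamts5, a protease of cartilage matrix, at percentiles of 53.3 in no dox 1 and 93.0 in +dox 3. Zinc-finger genes of the C2H2 kind had one in 19 of 459 (4.14%), led by Zfp653, called in all 6 at 10.2, 10.8 and 4.71 CPM without dox and 40.4, 24.5 and 11.7 CPM with dox. Ion channel and calcium genes had one in 9 of 172 (5.23%), among them the potassium channel gene Kcnh4, called in no dox 3 and +dox 3 at 2.57 and 1.49 CPM, and this count includes Itpripl2, which matched the name pattern and is no channel. Signalling receptors and ligands had one in 3 of 37 (8.11%), Lrp1, Notch3 and Notch4. Notch4 was called in 5 libraries at percentiles of 55.5 and 76.0 in no dox 1 and 2 and 72.0, 65.7 and 82.2 with dox, on its last coding exon. Myogenic and partner transcription factors had one in 3 of 30 (10%), among them Hey1 and Nfatc1. Median coding lengths were 3463.5 bp in the matrix list, 1719 bp in the zinc-finger list and 2088 bp in the channel list. They were 3741 bp in the signalling list and 1452 bp in the transcription factor list. The part of coding length in these counts was not tested either.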

How the data were processed

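CUT and RUN peak lists of 6 libraries were used. The authors processed reads with nf-core/cutandrun 3.2.2 on mm10, removed blacklisted regions, scaled coverage to CPM and ran SEACR (relaxed) separately on every library. Each deposited list gives, per peak, the total signal, the maximum signal and the stretch that reached it. CPM carry no spike-in scale. Depth was read from the step of the maximum signals (100% whole multiples within 0.02).

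Where the maximum was a stretch, its midpoint was used. Peaks on the mitochondrial chromosome (2) were left out. Exons and starts came from GENCODE M21 basic and sequence from GRCm38, the assembly of mm10. Group means were compared by exact permutation tests and differences within libraries by exact sign-flip tests, with Benjamini-Hochberg adjustment over 6 tests. Log2 maximum signals of regions called in all 6 libraries were fitted in limma 3.58.1 (R 4.3.3). Other steps used Python 3.11.15, NumPy 2.4.6, pandas 2.3.3, SciPy 1.17.1 and pysam 0.24.0. Scripts were tested on simulated lists and signals. Intervals are 95% Wilson and cover counting error only.

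Same-numbered libraries deviated together over 4838 regions (correlations of 0.485, 0.267 and 0.628 for numbers 1, 2 and 3), so by the rule used here (each above 0.1) the replicate number counted as a pairing. Numbers 1 and 2 also deviated together across numbers (0.265 and 0.219), while number 3 went against both (-0.56 to -0.321), so the data separate number 3 from the others more clearly than 1 from 2.

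Members, gene lists and tests were chosen with earlier results of these data known. Named were the 10 highest members called in all 6 libraries, up to 10 called in +dox only and 5 in no dox only, genes with 3 or more members, up to 5 members with the largest log2 difference in each direction, and up to 4 per gene list. Some members that this rule names are not reported here. Alternatives changed the library rule, the position, the promoter distance, the annotation, the list length, the rank, the motif, its window, the signal, the libraries and the pairing.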

Additional observations from a re-analysis of the deposited data

Results flagged for a closer look

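Coding exon regions more than 1 kb from starts that only 1 library called lie outside the rule for members and were used in no comparison. There were 1951 of them, with a median height percentile of 19.7 against 22.9 for members called in 2 libraries. They were taken up here because such peaks form signal outside the regions that were compared. Of these, 1357 were called only in +dox 3, the deepest library with the longest list. The other libraries had from 77 to 218 each. Coding exon regions were 3.93% of the 34513 regions of any class called only in +dox 3, and 5.93% to 20.8% of those called only in 1 of the other libraries. Their relation to MyoD1 was not tested.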

How the results depend on the processing

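Of 96 alternative values for 7 results, 85 kept their direction and their side of the threshold. A further 8 turned direction and 3 gave calls where there were none. No exact test could pass the threshold in any alternative, because its smallest possible adjusted p lay above it. For those results only the direction could change, so an unchanged side of the threshold is no sign of stability. The counts in limma could change side, and the 3 new calls were among them. With libraries numbered 1 and 2 alone, the difference in members called was -4.5 and that in height percentile -1.473. The difference in list share was 0.00355 points with lists of equal length. CAGCTG share, members minus introns, was 0.1397 points at more than 2 kb from starts and 2.898 with lists of equal length. Maxima against peak midpoints gave -1.884 points (chosen after the data were seen). Leaving out each library in turn gave 16.5 to 127.8 members called, -0.6586 to 0.03847 points of list share and -1.496 to 10.61 points of height, where 16.5, 0.03847 and -1.496 came without +dox 3. It gave -29.33 to -22.84 points for height against introns, -3.44 (without +dox 3) to -0.6453 for CAGCTG, 11.11 to 12.05 for maxima against bases, and 0 to 27 members changed, 27 without +dox 3. With the replicate block 37 members changed. With libraries 1 and 2 alone (added later), 31 of 88 members tested (35.2%) were higher, against 36.7% of 6196 regions. The replicate block changed no other call, with values of 87.0 members, -0.393 points of share and 4.146 points of height, at a smallest possible exact p of 0.25. The cause of these shifts was not tested. Placing regions by the maximum selects maxima on exons by construction. With 1 list per group, the libraries numbered 3 alone gave values without a test. Relaxed calling without a common floor and 3 libraries per group limit what could be detected.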
